A study of Mus musculus with 2 samples.

Results

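C1q-high macrophages of the mouse mesentery were taken as the barcodes in which the UMIs of C1qa, C1qb and C1qc, the genes of the 3 chains of complement component C1q, summed to at least 8. A UMI is a molecular tag that counts 1 captured transcript. The cells were thus chosen by the measured C1q UMIs. Their barcodes also had to hold 200 or more genes, a mitochondrial share of no more than 10%, at most 2 UMIs of Dcn (a fibroblast proteoglycan), at most 1 UMI of Cdh5 and Cldn5 together (endothelial junction genes) and 0 UMIs of Cd3e and Cd79a (antigen receptor subunits of T and B cells). This left 253 cells of 3143 filtered barcodes, out of 3204 deposited: 124 of 1484 in library 1 and 129 of 1659 in library 2. The share was 8.36% in library 1 (exact Clopper-Pearson 95% interval 7.0 to 9.88%) and 7.78% in library 2 (6.53 to 9.17%), a mean of 8.07% ± 0.410 (SD, n = 2). The intervals cover counting error only.

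The cells come from the whole mesentery, the fold of fat, vessels and connective tissue that carries the gut, of 2 untreated male mice of the wild-type strain C57BL/6N. Cells were freed with Liberase DH, a collagenase blend, and captured with version 2 of the Chromium 3′ chemistry, with 1 library per mouse. The labels give a date of birth and no age at harvest. Both animals form 1 group, so the comparisons below are between cells of the same animals, and wherever a pair of values is given, library 1 comes before library 2.

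Tissue macrophages take up dying cells, haemoglobin and lipid, and make chemokines that call in other leukocytes. C1q starts the classical complement pathway when it binds antibody or dying cells, and macrophages are among its main sources. In connective tissue, macrophages with LYVE1, a hyaluronan receptor, and FOLR2, a folate receptor, have been described along vessels, beside others rich in MHC class II, which shows antigen to T cells.

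The cells were set against 2 other populations of the same libraries. The first, called Lyz1-group cells here, comprised 85 filtered barcodes (41 and 44) with a sum of at least 4 UMIs of Lyz1, Ear2, Mmp12 and Fcrls, which are myeloid genes, and a C1q sum below 8. The second comprised the other 2890 filtered barcodes (1360 and 1530), of every cell type captured. The C1q-high macrophages held a median of 3021.5 and 2030 UMIs, Lyz1-group cells 5759 and 5297, and the other barcodes 3170 and 2734.5. Levels are given as CPM, the UMIs of a gene scaled to 1000000 UMIs per population and library. No barcode sequence was shared by the libraries.

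The label's markers outside the rule, Pf4, Folr2 and Cbr2, had a summed level of 5578 and 4918 CPM in C1q-high macrophages, against 4.29 and 31.6 CPM in Lyz1-group cells and 46.4 and 39.8 CPM in the other barcodes. Those 3 genes were named with earlier results of these data known, so their levels describe the cells. Tests below that include them are not independent evidence for the label. Fibroblast markers outside the rule summed to 170 and 166 CPM in C1q-high macrophages, with Pdgfra at 0, against 1278 and 2255 CPM in Lyz1-group cells and 14408 and 13107 CPM in the other barcodes. Among platelet markers other than Pf4, Gp9, Itga2b, Gp1ba, Gp1bb and Tubb1 had 0 UMIs in C1q-high macrophages, whereas Ppbp had UMIs there. The 7 platelet markers together summed to 4040 and 3521 CPM in C1q-high macrophages, of which Pf4 gave 4035 and 3509 CPM. The 9 monocyte markers summed to 706 and 718 CPM in C1q-high macrophages, against 1304 and 1019 CPM in Lyz1-group cells. The 11 dendritic cell markers summed to 4364 and 3415 CPM in C1q-high macrophages, against 2277 and 1150 CPM in Lyz1-group cells. Cst3, a protease inhibitor that macrophages make too, gave 4254 and 3319 CPM of the former and 2046 and 1046 CPM of the latter. The higher sum in C1q-high macrophages thus came from Cst3. Clec9a, Fscn1, Itgae and Dpp4 were at 0 in C1q-high macrophages, and Flt3, Clec9a, Itgae and Kmo were at 0 in Lyz1-group cells. The cells therefore carried the markers of their label, while the word "resident" refers to where cells come from and how long they stay, which transcript counts do not measure.

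The regions just upstream of the start sites of the label genes C1qb, C1qc, Pf4, Folr2 (2 starts) and Cbr2 are shown because these genes were high together in the same cells; that of C1qa was not used here. Each is the 250 bases before the RefSeq start on GRCm38.p6, 5′ to 3′ on the strand of the gene. Capitals mark GAGGAA or its reverse TTCCTC, the core bound by PU.1, a myeloid transcription factor, and TGCTGA or its reverse TCAGCA, the core bound by MAF factors.
C1qb, chr4:136886201-136886450, minus strand: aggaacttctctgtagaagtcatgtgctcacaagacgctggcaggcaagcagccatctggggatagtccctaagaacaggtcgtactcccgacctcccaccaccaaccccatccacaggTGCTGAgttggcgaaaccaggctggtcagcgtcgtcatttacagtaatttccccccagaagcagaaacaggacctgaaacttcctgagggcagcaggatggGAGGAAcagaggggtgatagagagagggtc
C1qc, chr4:136892915-136893164, minus strand: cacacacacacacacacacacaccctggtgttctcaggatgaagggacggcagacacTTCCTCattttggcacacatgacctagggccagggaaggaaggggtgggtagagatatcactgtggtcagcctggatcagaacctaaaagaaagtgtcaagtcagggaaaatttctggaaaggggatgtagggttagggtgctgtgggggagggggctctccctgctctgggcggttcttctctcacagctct
Pf4, chr5:90772185-90772434, plus strand: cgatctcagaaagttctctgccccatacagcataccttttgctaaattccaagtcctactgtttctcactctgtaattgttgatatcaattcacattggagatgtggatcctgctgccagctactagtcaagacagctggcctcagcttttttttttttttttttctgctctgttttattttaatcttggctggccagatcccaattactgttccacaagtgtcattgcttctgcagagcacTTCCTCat
Folr2, start 1, chr7:101857191-101857440, minus strand: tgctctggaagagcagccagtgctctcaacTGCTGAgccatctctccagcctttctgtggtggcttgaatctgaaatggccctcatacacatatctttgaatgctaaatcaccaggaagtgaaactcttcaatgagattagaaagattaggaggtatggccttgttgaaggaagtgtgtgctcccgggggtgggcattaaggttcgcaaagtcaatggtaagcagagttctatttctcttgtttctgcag
Folr2, start 2, chr7:101845332-101845581, minus strand: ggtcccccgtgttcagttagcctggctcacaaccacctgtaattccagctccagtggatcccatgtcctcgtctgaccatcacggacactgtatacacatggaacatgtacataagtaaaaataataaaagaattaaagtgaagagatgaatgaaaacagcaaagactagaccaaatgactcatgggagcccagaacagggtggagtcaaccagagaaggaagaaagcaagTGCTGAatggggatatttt
Cbr2, chr11:120732022-120732271, minus strand: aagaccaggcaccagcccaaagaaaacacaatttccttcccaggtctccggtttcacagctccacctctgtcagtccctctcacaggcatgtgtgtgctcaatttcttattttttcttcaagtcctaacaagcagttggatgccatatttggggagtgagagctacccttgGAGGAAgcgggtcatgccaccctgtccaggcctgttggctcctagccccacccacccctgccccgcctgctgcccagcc
The regions of C1qb, C1qc, Pf4 and Cbr2 held 1 PU.1 core each, and that of C1qb also held 1 MAF core, while both regions of Folr2 had 1 MAF core and 0 PU.1 cores. Of the 32536 upstream regions of the same length in the RefSeq table, 23.4% held the PU.1 core on either strand, 16.1% the MAF core and 3.70% both. The matches are letters in a window and do not show that a factor binds there. The 3 C1q genes lie side by side on the minus strand of chromosome 4, in the order C1qb, C1qc, C1qa, within 18675 bases (136880129 to 136898803 on GRCm38).

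The 3 chains of C1q were present together in nearly all of these cells, and the number of C1q UMIs separated them from most other barcodes. Of the filtered barcodes, 2724 had no C1q UMI, 93 had 1, 46 had 2 to 7 and 280 had 8 or more. Of those 280, 27 were set aside by a limit: 12 by Dcn, 9 by Cdh5 and Cldn5, and 6 by Cd3e and Cd79a. The sum per C1q-high macrophage ranged from 8 to 161 in library 1, with a median of 40, and from 8 to 134 in library 2, with a median of 22. At the edge of the rule, 24 C1q-high macrophages with a sum of 8 to 11 had 1403 CPM of Pf4, 351 CPM of Folr2 and 4518 CPM of Apoe, with a median of 1356 UMIs per cell. Just outside it, 22 barcodes with a sum of 4 to 7 had 1001 CPM of Pf4, 229 CPM of Folr2 and 1981 CPM of Apoe, with a median of 1383.5 UMIs. The cells next to the threshold on either side thus held, as sets, the label's markers at lower levels than the 229 C1q-high macrophages with a sum of 12 or more, which had 3964 CPM of Pf4, 949 CPM of Folr2 and 7984 CPM of Apoe. Barcodes with a C1q sum of 4 to 7 also include Lyz1-group cells. That population held 41 and 44 cells with a C1q sum below 8, and 36 and 40 below 4. Their part in the lower levels was not tested.

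**Figure D1:**
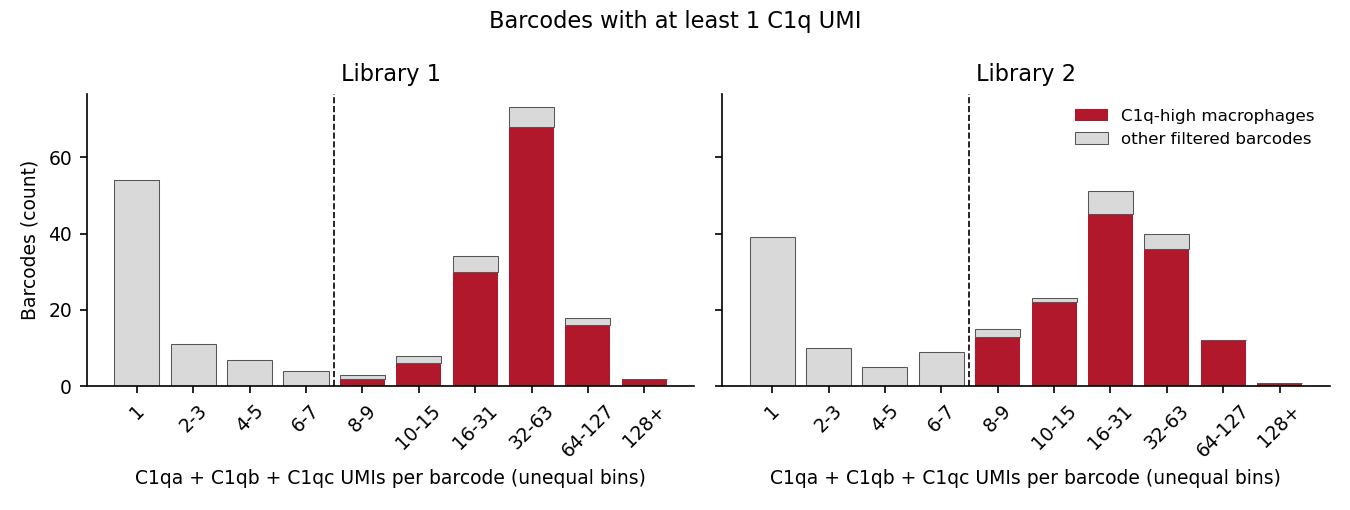
Number of barcodes (y axis) by the summed UMIs of C1qa, C1qb and C1qc (x axis, unequal bins, barcodes with 0 left out) in each library; red bars are C1q-high macrophages, grey bars other filtered barcodes, and the dashed line is the threshold of 8. Of the barcodes drawn, 46 lie between 2 and 7 UMIs, against 280 at 8 or more, and the tall bar at the left holds the 93 barcodes with 1 UMI.

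All 3 chains were detected in 124 of 124 C1q-high macrophages of library 1 and 126 of 129 of library 2. C1qa had 4786 and 4046 CPM in C1q-high macrophages, against 8.58 and 22.5 CPM in Lyz1-group cells. C1qb had 5272 and 4248 CPM in C1q-high macrophages, against 150 and 108 CPM in Lyz1-group cells. C1qc had 4173 and 4079 CPM in C1q-high macrophages, against 8.58 and 18.0 CPM in Lyz1-group cells. These levels and the shares of the chains below come from the UMIs that chose the cells, so they are a description with no test. In C1q-high macrophages, C1qb made up 37.0% of the C1q UMIs in library 1 (interval 35.8 to 38.3%) and 34.3% in library 2 (32.9 to 35.8%). In Lyz1-group cells it made up 89.7% in library 1 (35 of 39 UMIs, interval 75.8 to 97.1%) and 72.7% in library 2 (24 of 33 UMIs, 54.5 to 86.7%). The few C1q UMIs of Lyz1-group cells were thus mostly C1qb, whereas the chains were near equal in C1q-high macrophages. The intervals treat UMIs as independent, although the 59 C1qb UMIs of Lyz1-group cells came from 12 of 41 and 10 of 44 cells. In the fibroblast gate, which took barcodes with at least 10 Dcn UMIs, a C1q sum below 8 and no other gate, C1qb was 45.7% of 35 C1q UMIs (28.8 to 63.4%) in library 1 and 16.7% of 18 (3.58 to 41.4%) in library 2. In the endothelial gate, with at least 3 UMIs of Cdh5 and Cldn5, C1qb was 68.8% of 16 C1q UMIs (41.3 to 89.0%) in library 1 and 28.6% of 14 (8.39 to 58.1%) in library 2. At these few UMIs the share of C1qb thus varied between libraries within a gate.

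**Figure D2:**
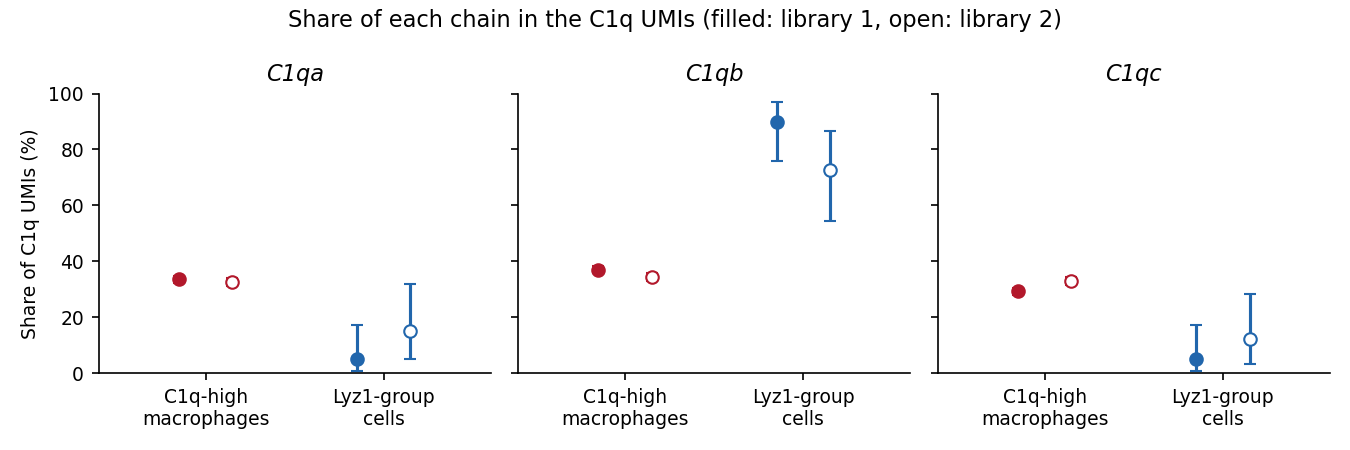
Percentage of the C1q UMIs (y axis) that came from C1qa, C1qb and C1qc (panels) in C1q-high macrophages and Lyz1-group cells; filled symbols are library 1, open symbols library 2, and bars are exact 95% intervals for counting error. C1qb lies at 37.0 and 34.3% in C1q-high macrophages, against 89.7 and 72.7% in Lyz1-group cells.

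Against Lyz1-group cells, C1q-high macrophages were higher in genes of scavenging and clearance, in lectins, in anaphylatoxin receptors and in a broad set of chemokines, and about level in the classical MHC class II genes. Of 3571 genes tested with edgeR's quasi-likelihood test with library as a block, 627 (17.6%) were higher in C1q-high macrophages and 526 (14.7%) lower at a Benjamini-Hochberg adjusted p under 0.05, 32.3% in all, and the median log2 fold change over all of them was -0.0034. The log2 fold changes below are C1q-high macrophages over Lyz1-group cells, and "rose" or "fell" is said of genes that passed this test. The ± value after a fold change is an approximate standard error, its size over the square root of the F statistic of the test. It can be too small where a population held few UMIs of the gene. A gene passed the count filter through whichever population held it, so a gene present only in the C1q-high macrophages could enter the test only by differing. With 2 libraries, how far the difference of a gene varied between mice is known from 2 mice only. edgeR moderates that spread with the spread of the other genes, so p-values also rest on values shared across genes.

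The gene lists used here and below were drawn up with earlier results of these data known, so their directions are not independent evidence. Some genes stand in several lists. This includes the list of genes that mark resident macrophages. Of its 32 members, 27 were tested, and 7 of these had 0 UMIs in Lyz1-group cells, so that they could only rise. All 27 rose, with a median log2 fold change of 5.28, or 4.80 with genes at 0 in Lyz1-group cells set at their bound. Apoe, the lipid carrier apolipoprotein E, had 7857 and 7624 CPM in C1q-high macrophages, against 142 and 149 CPM in Lyz1-group cells (log2 fold change 5.81 ± 0.13). Sepp1, which encodes the selenium carrier selenoprotein P, had 5049.8 and 5126 CPM in C1q-high macrophages, against 184 and 198 CPM in Lyz1-group cells (4.80 ± 0.13). The growth factor gene Igf1 had 285 and 398 CPM in C1q-high macrophages, against 4.29 and 13.5 CPM in Lyz1-group cells (5.28 ± 0.37). In each of these genes the lowest C1q-high value stood above the highest Lyz1-group value.

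Csf1r, the receptor for the growth factor that macrophages depend on, had 889.6 and 1134 CPM in C1q-high macrophages, against 184 and 194 CPM in Lyz1-group cells (2.48 ± 0.15). Lyve1 had 581 and 588 CPM in C1q-high macrophages and 0 UMIs in Lyz1-group cells of either library, which makes it at least 88.6-fold higher against a limit of 3 UMIs over both libraries. Folr2, with 986 and 818 CPM in C1q-high macrophages, was likewise at 0 UMIs in Lyz1-group cells, a difference of at least 138-fold. Pf4, a chemokine best known from platelet granules, had 4035 and 3509 CPM in C1q-high macrophages, against 0 and 31.6 CPM in Lyz1-group cells. Cbr2, a carbonyl reductase, had 557 and 591 CPM in C1q-high macrophages, against 4.29 and 0 CPM in Lyz1-group cells. The tested members thus differed by amounts between 1.52 on the log2 scale for Cd68, a lysosomal glycoprotein of macrophages in general with 599 and 380.1 CPM against 210.1 and 149 CPM, and a complete absence of UMIs on the Lyz1-group side. Cd5l, Cx3cr1, Fcgr1, Mertk and Siglec1 did not pass the filter on low counts.

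**Figure D3:**
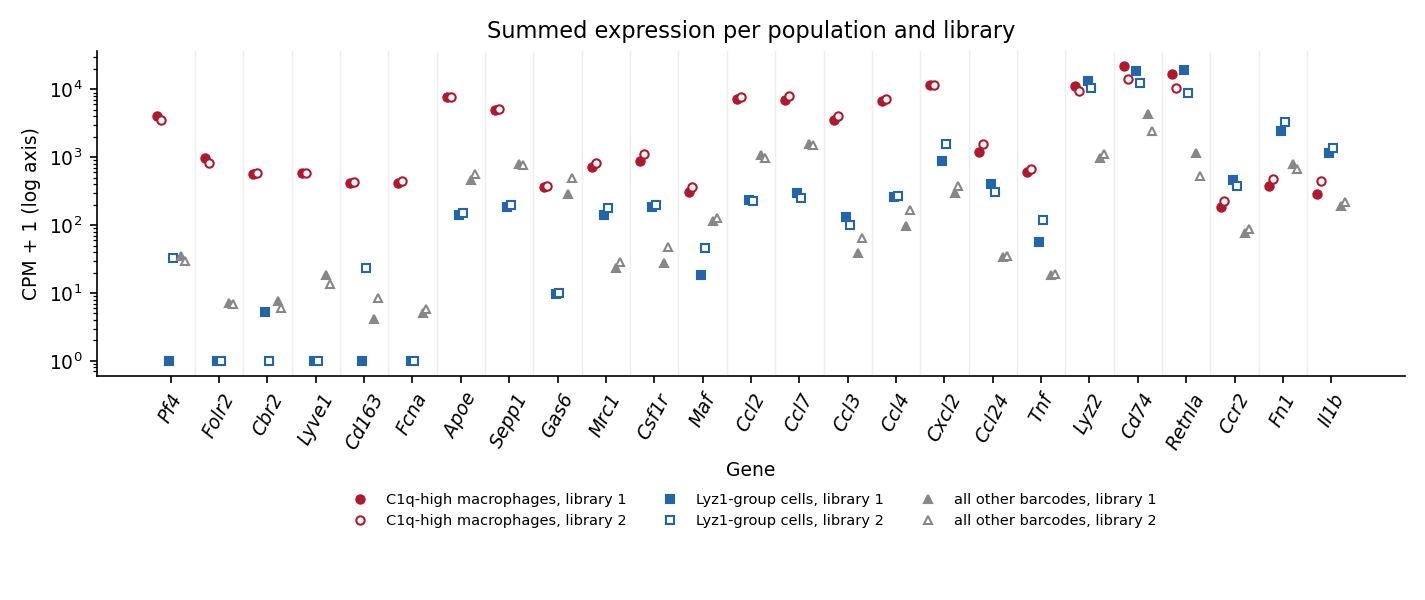
Summed expression in CPM + 1 (log y axis) of label, scavenger, chemokine, MHC class II and myeloid genes (x axis) in C1q-high macrophages, Lyz1-group cells and all other barcodes; filled symbols are library 1 and open symbols library 2. C1q-high macrophages lie above Lyz1-group cells in both libraries for Pf4, Folr2 and Lyve1, and Lyz1-group cells sit at the floor for Folr2 and Lyve1, which have 0 UMIs there.

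Receptors that bind debris, haemoglobin and sugars were mostly higher. Of the 21 phagocytic and scavenger receptor genes tested, of 32 listed, 13 rose and 2 fell, with a median of 1.85. Of the 21, 3 had 0 UMIs in Lyz1-group cells and could only rise. Folr2, Lyve1, Timd4, Gas6, Cd163, Mrc1 and Trem2, all among those that rose, stand in the resident macrophage list too. Cd163, the haptoglobin-haemoglobin scavenger receptor, had 413 and 428 CPM in C1q-high macrophages, against 0 and 22.5 CPM in Lyz1-group cells (5.28 ± 0.40). Mrc1, the mannose receptor, had 727 and 821 CPM in C1q-high macrophages, against 142 and 180.4 CPM in Lyz1-group cells (2.34 ± 0.16). Gas6, a protein that bridges dying cells to receptors on phagocytes, had 364 and 371 CPM in C1q-high macrophages, against 8.58 and 9.02 CPM in Lyz1-group cells (5.39 ± 0.35). The phosphatidylserine receptor gene Timd4 was low, at 54.9 and 60.3 CPM in C1q-high macrophages, and absent in Lyz1-group cells, at least 8.71-fold higher. Cd36, a receptor for fatty acids and oxidised lipid, had 1303 and 1436 CPM in C1q-high macrophages, against 386 and 410.4 CPM in Lyz1-group cells (1.85 ± 0.12). Lrp1, a broad endocytic receptor, fell, as did Scarb1, a lipoprotein receptor, whose call was lost in 5 alternatives (adjusted p between 0.054 and 0.097), while Tyrobp, the signalling adaptor of many such receptors, was at 1866 and 1726 CPM in C1q-high macrophages and 2132 and 1664 CPM in Lyz1-group cells and did not pass the test.

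Of 18 lectin genes tested, of 21 listed, 11 rose and 2 fell, with a median of 1.69. Of the 18, 3 had 0 UMIs in Lyz1-group cells and could only rise. Fcna, the soluble lectin ficolin A of the lectin complement pathway, had 411 and 447 CPM in C1q-high macrophages and 0 UMIs in Lyz1-group cells, at least 64.8-fold higher. Cd209f and Cd209g, relatives of the human lectin DC-SIGN, were also at 0 in Lyz1-group cells and at least 46.5-fold and 20.6-fold higher in C1q-high macrophages. Mgl2, a galactose-type lectin, had 816 and 661 CPM in C1q-high macrophages, against 154 and 36.1 CPM in Lyz1-group cells (3.03 ± 0.24). The lectin gene that fell furthest was Clec4e, a sensor of mycobacterial glycolipid, with 86.3 and 66.4 CPM in C1q-high macrophages, against 279 and 230.0 CPM in Lyz1-group cells (-1.65 ± 0.25). The Cd209 genes have close copies in the genome, and the sources used here do not say how reads that match several copies were counted, so their separate values are uncertain.

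Complement genes beyond the C1q chains moved in both directions. Of 11 tested, of 24 listed, 5 rose and 4 fell, with a median of 0.36. The receptors for the fragments C5a and C3a rose: C5ar1 had 937 and 760.3 CPM in C1q-high macrophages, against 25.7 and 9.02 CPM in Lyz1-group cells (5.64 ± 0.26), and C3ar1 had 531 and 555 CPM in C1q-high macrophages, against 25.7 and 9.02 CPM in Lyz1-group cells (4.99 ± 0.30). C3, the central component, fell to 28.8 and 45.3 CPM in C1q-high macrophages, against 81.5 and 185 CPM in Lyz1-group cells (-1.74 ± 0.34). Serping1, the inhibitor of the C1 complex, had 5.23 and 12.1 CPM in C1q-high macrophages, against 77.2 and 58.6 CPM in Lyz1-group cells (-2.88 ± 0.59). In the fibroblast gate C3 had 2081 and 2821 CPM and Serping1 1306 and 1295 CPM, and fibroblast markers summed to 170 and 166 CPM in C1q-high macrophages, against 1278 and 2255 CPM in Lyz1-group cells; the part of those transcripts in the result was not tested.

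Chemokine transcripts were abundant in C1q-high macrophages. Of 16 chemokine genes tested, of 21 listed, 13 rose and 1 fell, with a median of 3.23, or 3.11 with genes at 0 in Lyz1-group cells set at their bound. Ccl2, a ligand that draws monocytes through CCR2, had 7261 and 7757 CPM in C1q-high macrophages, against 232 and 225 CPM in Lyz1-group cells (5.11 ± 0.13). Its neighbour Ccl7, another CCR2 ligand, had 6889 and 8010.2 CPM in C1q-high macrophages, against 300.2 and 253 CPM in Lyz1-group cells (4.82 ± 0.13). Ccl3, an inflammatory chemokine, had 3553 and 4097 CPM in C1q-high macrophages, against 129 and 99.2 CPM in Lyz1-group cells (5.13 ± 0.15), and its close relative Ccl4 had 6772 and 7214 CPM in C1q-high macrophages, against 257 and 271 CPM in Lyz1-group cells (4.80 ± 0.12). The neutrophil attractant Cxcl2 had 11680.1 and 11609.5 CPM in C1q-high macrophages, against 892 and 1592 CPM in Lyz1-group cells (3.34 ± 0.14). The 1 that fell was Ccl6, by 0.27 on the log2 scale, and its call was lost in 9 alternatives (adjusted p between 0.065 and 0.64). Ccl9 did not pass the test, with 2318 and 2275 CPM in C1q-high macrophages and 2050.0 and 2039 CPM in Lyz1-group cells. Without the filter on low counts, edgeR called Ccl9 higher (log2 fold change 0.29, adjusted p = 0.040). The chemokine signal was spread over the cells: Ccl2, Ccl3, Ccl4, Ccl7 and Cxcl2 together took a median of 3.01 and 3.43% of the UMIs of a C1q-high macrophage, with the highest cells at 14.9 and 15.3%, against medians of 0.0663 and 0.169% in Lyz1-group cells.

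Cytokine and growth factor genes followed, with 11 of 16 tested (of 31 listed) higher and 2 lower, at a median of 3.13. Of the 16, 2 had 0 UMIs in Lyz1-group cells and could only rise. Tnf had 612 and 667 CPM in C1q-high macrophages, against 55.8 and 117 CPM in Lyz1-group cells (2.97 ± 0.22). Gdf15, a stress-induced hormone, had 445 and 422 CPM in C1q-high macrophages, against 0 and 18.0 CPM in Lyz1-group cells (5.63 ± 0.40), and Hbegf, a ligand of the EGF receptor, had 254 and 196 CPM against 8.58 and 4.51 CPM in Lyz1-group cells (5.08 ± 0.45). The inflammatory cytokine Il1b went the other way, with 290.4 and 444 CPM in C1q-high macrophages, against 1149 and 1353 CPM in Lyz1-group cells (-1.71 ± 0.13). Genes that respond to stress and to tissue dissociation moved with these: 12 of 22 tested (of 24 listed) rose and 1 fell, at a median of 0.58. Among them, Ier3, an early response gene, had 1206 and 1343 CPM in C1q-high macrophages, against 103 and 99.2 CPM in Lyz1-group cells (3.72 ± 0.16), and the heat shock gene Hspa1a had 366 and 208 CPM in C1q-high macrophages, against 25.7 and 18.0 CPM in Lyz1-group cells (3.77 ± 0.32). Jun, Fos and Egr1 did not pass the test. The part of dissociation in the chemokine and cytokine levels was not tested.

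Genes of the lysosome and of iron were higher in the majority of those tested. Of 31 lysosome and lipid genes tested, of 33 listed, 19 rose and 2 fell, with a median of 1.05. Lgmn, the lysosomal protease legumain, had 699 and 606 CPM in C1q-high macrophages, against 68.6 and 54.1 CPM in Lyz1-group cells (3.48 ± 0.21). Ctsb, which encodes cathepsin B, had 2512 and 2317 CPM in C1q-high macrophages, against 489 and 501 CPM in Lyz1-group cells (2.36 ± 0.12). The lipoprotein lipase gene Lpl fell to 269 and 588 CPM in C1q-high macrophages, against 1188 and 2029 CPM in Lyz1-group cells (-1.86 ± 0.12). Of 13 iron and haem genes tested, of 17 listed, 10 rose and 1 fell, with a median of 1.70. Hmox1, which breaks down haem, had 1447 and 866 CPM in C1q-high macrophages, against 180.1 and 131 CPM in Lyz1-group cells (2.96 ± 0.16). Trf, the iron carrier transferrin, had 1128 and 1065 CPM in C1q-high macrophages, against 112 and 49.6 CPM in Lyz1-group cells (3.83 ± 0.20). The ferritin light chain gene Ftl1, high in both populations, rose by 0.85 ± 0.09, with 22073 and 21749.7 CPM in C1q-high macrophages, against 12128 and 13467 CPM in Lyz1-group cells.

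The populations were close in the classical class II genes that present antigen. Of 11 genes of the MHC class II list tested, of 15 listed, 5 rose and 2 fell, with a median of 0.23. Cd74, the invariant chain that guides class II molecules, had 22499 and 14174 CPM in C1q-high macrophages, against 18557 and 12484 CPM in Lyz1-group cells (0.31 ± 0.09). H2-Aa, a class II alpha chain, had 7789 and 4945 CPM in C1q-high macrophages, against 6343 and 4140.1 CPM in Lyz1-group cells (0.35 ± 0.09). H2-Ab1, the matching beta chain, had 7067 and 3747 CPM in C1q-high macrophages and 6553 and 4023 CPM in Lyz1-group cells and did not pass the test. Both small rises lost their call with DESeq2's Wald test (adjusted p = 0.13 for Cd74 and 0.14 for H2-Aa), without the library block (0.40 and 0.35) and with the same limits on both populations (0.27 and 0.092), and that of Cd74 also without the C1q-high macrophages whose Lyz1-group sum reached 4 (0.066). H2-Eb1, another class II beta chain, did not pass the test. It had 5390 and 3756 CPM in C1q-high macrophages, against 4829 and 3364 CPM in Lyz1-group cells. It was called higher by edgeR without the filter on low counts (adjusted p = 0.020) and at a C1q sum of at least 16 (0.028). The same held at a Lyz1-group sum of at least 8 (0.043) and with 500 or more genes and 5% or less mitochondrial share (0.024). H2-DMb2, a chain of the H2-M peptide exchanger, fell to 5.23 and 12.1 CPM in C1q-high macrophages, against 223 and 189 CPM in Lyz1-group cells (-4.48 ± 0.43). Per cell, the 4 genes Cd74, H2-Aa, H2-Ab1 and H2-Eb1 took a median of 3.89 and 1.83% of UMIs in C1q-high macrophages and 3.16 and 2.46% in Lyz1-group cells. The spread was wide within the C1q-high macrophages: 7 and 12 cells had no UMI of those 4 genes, and the highest cells had 12 and 8.74%. Of 9 genes of alternative activation tested, of 16 listed, 7 rose and 1, Fn1, fell, with a median of 2.33, and the scavenger and lectin genes Cd163, Mrc1, Mgl2 and Clec10a were among those that rose. The remaining tested member, Retnla, which encodes a secreted protein, had 16905 and 10544 CPM in C1q-high macrophages and 19304 and 8957 CPM in Lyz1-group cells and did not pass the test. At unequal depth, 39 of 124 and 43 of 129 C1q-high macrophages had no Retnla UMI, against 3 of 41 and 6 of 44 Lyz1-group cells. At an equal depth of 2000 UMIs per cell, Retnla was detected in 68.0 and 66.2% of C1q-high macrophages, against 90.2 and 86.5% of Lyz1-group cells.

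Genes of monocyte-derived cells were lower in the larger part: of 16 tested, of 30 listed, 3 rose and 10 fell, with a median of -0.62. Fn1, which encodes fibronectin, had 377 and 479.7 CPM in C1q-high macrophages, against 2436 and 3283 CPM in Lyz1-group cells (-2.66 ± 0.11). Lsp1, a leukocyte actin-binding protein, had 178 and 193 CPM in C1q-high macrophages, against 1128 and 907 CPM in Lyz1-group cells (-2.38 ± 0.15). Ccr2, the receptor for Ccl2 and Ccl7, had 183 and 226 CPM in C1q-high macrophages, against 463 and 379 CPM in Lyz1-group cells (-0.97 ± 0.18), which DESeq2's Wald test left uncalled (adjusted p = 0.23). Lyz2, the general myeloid lysozyme, had 11149 and 9368 CPM in C1q-high macrophages and 13484 and 10666 CPM in Lyz1-group cells and did not pass the test, although it was called with the same limits on both populations (adjusted p = 0.033). Cd24a, a surface glycoprotein of the list of serous cavity macrophages, fell to 10.5 and 3.02 CPM in C1q-high macrophages, against 459 and 320.2 CPM in Lyz1-group cells (-5.66 ± 0.36), and of the 5 genes of that list tested, of 16 listed, 3 fell. Of the 10 largest decreases, Meg3, Ebf1, Fbn1, Timp3, Col1a2, Sparc, Dpt and Col3a1 were high in the fibroblast gate, where Col3a1 had 2640.3 and 2795 CPM, against 7.85 and 18.1 CPM in C1q-high macrophages and 129 and 180.4 CPM in Lyz1-group cells. Of the 85 Lyz1-group cells, 9 exceeded a limit that the C1q-high macrophages had to meet. When the same limits were put on both populations, a choice made after the data were seen, 2 of the 10, Cd24a and H2-DMb2, had counts enough to be tested and both were called.

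Among 28 transcription factor genes tested, of 36 listed, 14 rose and 3 fell, with a median of 0.64. Maf, a factor of macrophage identity, had 311 and 362 CPM in C1q-high macrophages, against 17.2 and 45.1 CPM in Lyz1-group cells (3.51 ± 0.30). Spi1, which encodes PU.1, had 570.4 and 664 CPM in C1q-high macrophages, against 322 and 257 CPM in Lyz1-group cells (1.16 ± 0.16). Bhlhe40 had 41.9 and 54.3 CPM in C1q-high macrophages, against 180.1 and 257 CPM in Lyz1-group cells (-2.10 ± 0.29). Of 21 cytokine and chemokine receptor genes tested, of 32 listed, 7 rose and 4 fell, with a median of 0.28. Csf2rb, the shared beta chain of the receptors for GM-CSF, IL-3 and IL-5, fell to 28.8 and 60.3 CPM in C1q-high macrophages, against 206 and 329 CPM in Lyz1-group cells (-2.52 ± 0.28), whereas Tgfbr2, a TGF-beta receptor, rose by 2.82 ± 0.40.

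**Figure D4:**
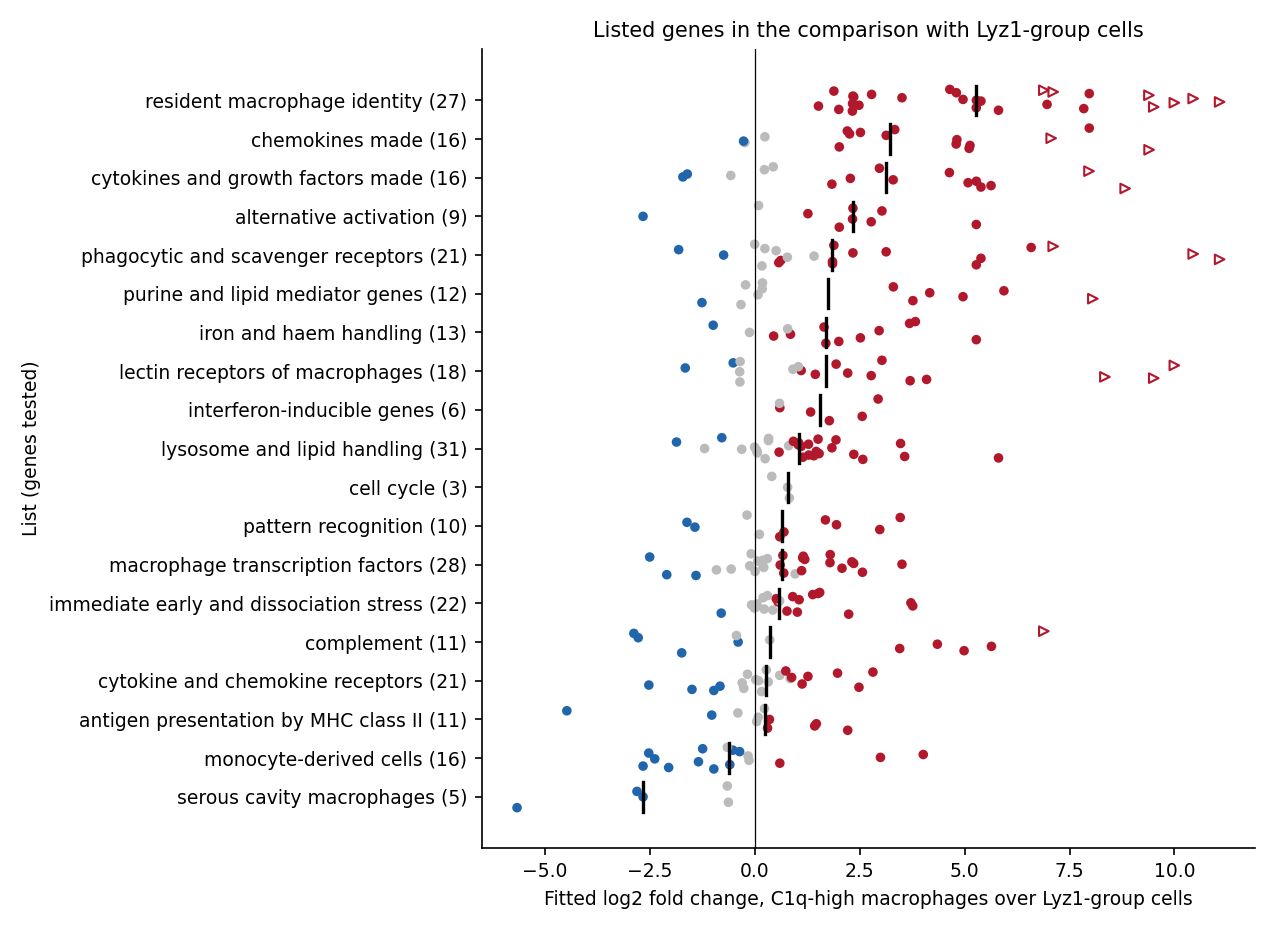
Fitted log2 fold change (x axis) of each listed gene, C1q-high macrophages over Lyz1-group cells, with 1 row per gene list and the number of genes tested in parentheses; red (higher) and blue (lower) points passed the test at an adjusted p under 0.05, grey points did not, open triangles are genes at 0 UMIs in Lyz1-group cells, whose fitted value is no bound, and black ticks are medians. All lists were drawn up with earlier results of these data known. The resident macrophage list lies wholly above 0 at a median of 5.28. Of its genes, 7 had 0 UMIs in Lyz1-group cells and could only rise. The median was -0.0034 over all genes tested and -0.62 in the monocyte-derived list.

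Several calls against Lyz1-group cells depended on the tool. Of the genes at 0 UMIs in Lyz1-group cells, DESeq2's Wald test did not call Folr2, Fcna, Cd209f, Ccl12, Ms4a7, Bmp2, Gpr183, Ch25h, Pdgfa or Hpgds, with adjusted p between 0.11 and 0.43. It also did not call C3, Serping1 or Clec4e (adjusted p = 0.28, 0.18 and 0.064), and the C3 call was lost as well with doublets removed (0.061).

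Against all other barcodes, the same genes could be read against fibroblasts, endothelium and lymphocytes. Of 10722 genes tested, 1500 (14.0%) were higher in C1q-high macrophages and 2260 (21.1%) lower, 35.1% in all, with a median log2 fold change of -0.24. The largest increases by the naming rule were Folr2, Pf4, Cbr2, Ccl3, C5ar1, C3ar1, Ccl4, Ccl24, F13a1 and Lyve1. Ccl24, a chemokine for eosinophils, had 1206 and 1569 CPM in C1q-high macrophages, against 33.0 and 33.8 CPM in the other barcodes (5.60 ± 0.13). F13a1, a subunit of clotting factor XIII, had 848 and 965 CPM in C1q-high macrophages, against 17.9 and 26.2 CPM in the other barcodes (5.60 ± 0.15). The largest decreases had 0 UMIs in C1q-high macrophages: the water channel gene Aqp1, at 674 and 424 CPM in the other barcodes, was at least 129-fold lower, the matrix proteoglycan gene Bgn at least 96.9-fold and Ptx3, a soluble pattern recognition protein, at least 49.5-fold. DESeq2's Wald test did not call these 3 decreases (adjusted p = 0.077, 0.095 and 0.16). Aqp1 was high in the endothelial gate, at 3397 and 2522 CPM. Bgn, at 776 and 623 CPM, and Ptx3, at 412 and 320 CPM, were high in the fibroblast gate. The rule limited Dcn, Cdh5 and Cldn5 in C1q-high macrophages only, so decreases of fibroblast and endothelial genes are not independent of the rule.

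The chemokines of C1q-high macrophages differed in how far other cells made them too. Ccl3 and Ccl4 were near absent from the fibroblast gate, at 3.84 and 7.84 CPM for Ccl3 and 23.9 and 14.2 CPM for Ccl4. Ccl2 had 1922 and 1539 CPM and Ccl7 2841 and 2368 CPM in that gate, below their levels in C1q-high macrophages. Cxcl1, a neutrophil attractant, had 2823 and 2999 CPM in C1q-high macrophages, against 3838 and 3219 CPM in the fibroblast gate. The T gate took barcodes with at least 2 Cd3e UMIs, a C1q sum below 8 and no other gate (39 and 34 cells). There Ccl4 had 67.0 and 547 CPM, Ccl3 11.2 and 12.7 CPM and Cxcl2 681 and 89.0 CPM. Other genes of the macrophage list also had a second source: Sepp1 had 1091 and 939 CPM and Gas6 501 and 863 CPM in the fibroblast gate, while Apoe had 1431 and 1472 CPM and Lyve1 70.6 and 35.1 CPM in the endothelial gate. For Gas6 the fibroblast level lay above the 364 and 371 CPM of C1q-high macrophages in both libraries. Of the 30 resident macrophage genes tested against all other barcodes, 28 rose and 0 fell, at a median of 4.63, and of 24 stress and dissociation genes 6 rose and 12 fell, at a median of -0.41. So the stress list, which had a median of 0.58 against Lyz1-group cells, lay below 0 against the tissue at large, where the median over all genes was -0.24.

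How many of the cells carried each gene was compared at an equal depth of 2000 UMIs per cell, which left 103 and 65 C1q-high macrophages, with 21 and 64 shallower cells left out. Pf4 was detected in 91.3 and 86.2% of C1q-high macrophages, against 1.38 and 0.371% of the fibroblast gate (506 and 539 cells), a population that should lack it. Folr2 was found in 69.9 and 58.5%, Mrc1 in 67.0 and 66.2% and Cbr2 in 60.2 and 60.0% of C1q-high macrophages. Lyve1 was found in 51.5 and 53.8% and Cd163 in 51.5 and 46.2% of C1q-high macrophages, against at most 0.557% of the fibroblast gate for Lyve1. Folr2 and Lyve1 were detected together in 44.7 and 44.6% of C1q-high macrophages, where independent detection would give 36.0 and 31.5%. Ccr2 was found in 21.4 and 20.0% of C1q-high macrophages, against 58.5 and 59.5% of Lyz1-group cells (41 and 37 cells) and 1.78 and 2.78% of the fibroblast gate. Lyve1 and Ccr2 were detected together in 6 of 103 and 1 of 65 C1q-high macrophages (5.83 and 1.54%), below the 11 and 10.8% of independent detection. Cx3cr1, the fractalkine receptor, was found in 3.88 and 1.54% of C1q-high macrophages, 1.78 and 2.04% of the fibroblast gate and 0.610 and 0% of the endothelial gate. The exact intervals of C1q-high macrophages, 1.07 to 9.65% and 0.0389 to 8.28%, cover the shares of the fibroblast gate. Whether the fibroblast gate shows the background level of this gene was not tested.

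Because Lyve1 divided the cells, C1q-high macrophages with at least 1 Lyve1 UMI (73 and 77 cells, 58.9 and 59.7%) were compared with those that had none (51 and 52 cells). A single UMI depends on depth, and the Lyve1-positive cells had a median of 2983 and 1940 UMIs, against 3063 and 2426 in Lyve1-negative cells. The Lyve1-negative cells also held 24 of the 25 C1q-high macrophages whose Lyz1-group sum reached 4 (13 and 11, against 1 and 0 among Lyve1-positive cells), so values without those 25 cells, a choice made after the data were seen, are given beside the list counts and the genes below. Of 2350 genes tested, 90 (3.83%) were higher in Lyve1-positive cells and 81 (3.45%) lower, 7.28% in all, at a Benjamini-Hochberg adjusted p under 0.05 in edgeR's quasi-likelihood test, and without the 25 cells 41 were higher and 36 lower. With cells thinned to 2000 UMIs before the split, 21 were higher and 15 lower.

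Lyve1-positive cells were higher in the genes that set the whole population apart. Of 26 resident macrophage genes tested, 17 rose and 0 fell, at a median log2 fold change of 1.00, against -0.0043 over all genes tested; without the 25 cells 12 of 26 rose and 0 fell, at a median of 0.64. Folr2 had 1404 and 1252 CPM in Lyve1-positive cells, against 461 and 298 CPM in Lyve1-negative cells (1.78 ± 0.18, and 1.30 without the 25 cells). Fcna had 653 and 671 CPM in Lyve1-positive cells, against 106 and 179 CPM in Lyve1-negative cells (2.20 ± 0.24, and 1.64). Gas6 had 539.9 and 559.7 CPM in Lyve1-positive cells, against 142 and 146 CPM in Lyve1-negative cells (1.90 ± 0.22, and 1.46). The same held for Cbr2, Pf4, Cd209f, Stab1, which encodes the scavenger receptor stabilin-1, and F13a1, whose log2 fold changes were 1.61, 0.98, 2.12, 1.85 and 1.55, and without the 25 cells 1.06, 0.63, 1.5, 1.27 and 1.35. Ccl2 had 9431 and 10956 CPM in Lyve1-positive cells, against 4528 and 3934 CPM in Lyve1-negative cells (1.24 ± 0.13, and 0.84). Vsig4, a receptor for C3 fragments, had 75.1 and 88.7 CPM in Lyve1-positive cells, against 5.91 and 13.2 CPM in Lyve1-negative cells (3.01 ± 0.65), but its call was lost without the 25 cells (adjusted p = 0.069), as were those of Apoe (0.38), Cd163 (0.28) and Ccl3 (0.71). At a C1q sum of at least 16 the same calls were lost (0.12, 0.092, 0.15 and 0.11). Thinning to 2000 UMIs lost those of Apoe (0.12), Cd163 (0.13) and Ccl3 (0.078). Those of Apoe (0.069) and Ccl3 (0.073) were lost without the library block, and that of Cd163 with DESeq2's Wald test (0.29). Csf1r did not pass the test, with 1019 and 1352 CPM in Lyve1-positive cells and 727 and 874 CPM in Lyve1-negative cells, but it was called higher with DESeq2 size factors in edgeR (adjusted p = 0.024), at a C1q sum of at least 4 (0.0075) and with barcodes held to 500 or more genes and a mitochondrial share of 5% or less (0.0032).

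Genes that fell in Lyve1-positive cells were led by Fn1, at 18.8 and 0 CPM in Lyve1-positive cells, against 828 and 1053 CPM in Lyve1-negative cells (-6.45 ± 0.42, and -5.63 without the 25 cells). Of 14 genes of monocyte-derived cells tested, 0 rose and 7 fell, at a median of -0.91, and without the 25 cells 0 of 13 rose and 5 fell, at a median of -0.53. Ccr2 had 65.7 and 72.0 CPM in Lyve1-positive cells, against 331 and 411 CPM in Lyve1-negative cells (-2.44 ± 0.27, and -1.98). Lgals3, the sugar-binding galectin-3, had 404 and 338 CPM in Lyve1-positive cells, against 1200.0 and 2086 CPM in Lyve1-negative cells (-2.11 ± 0.22, and -1.78). Without thinning, a Ccr2 UMI was found in 9.59 and 6.49% of Lyve1-positive cells, against 41.2 and 42.3% of Lyve1-negative cells, and a Fn1 UMI in 4.11 and 0% of Lyve1-positive cells, against 31.4 and 32.7%. As a description of genes the rules used, Lyz1 had 23.5 and 33.2 CPM in Lyve1-positive cells, against 1484 and 1702 CPM in Lyve1-negative cells, and C1qc 4995 and 4965 CPM, against 3139 and 3020 CPM.

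The MHC class II genes were lower in Lyve1-positive cells: of 9 tested, 0 rose and 6 fell, at a median of -0.64, and without the 25 cells 0 of 10 rose and 4 fell, at a median of -0.46. Cd74 had 16872 and 12164 CPM in Lyve1-positive cells, against 29585 and 16576 CPM in Lyve1-negative cells (-0.66 ± 0.13, and -0.62 without the 25 cells). Per cell, the 4 class II genes took a median of 2.59 and 1.58% of UMIs in Lyve1-positive cells, against 5.57 and 2.96% in Lyve1-negative cells. The groups overlapped widely, since single Lyve1-positive cells ranged from 0 to 9.02 and 8.74%, and Lyve1-negative cells from 0 to 12 and 7.64%. The calls of Cd74, H2-Aa, H2-Ab1 and H2-Eb1 were lost in edgeR with cells thinned to 2000 UMIs (adjusted p = 0.13 for Cd74 and 0.24 for H2-Aa) and without the library block (0.15 and 0.18). With 500 or more genes and 5% or less mitochondrial share, H2-Aa (0.052) and H2-Ab1 (0.0504) lost theirs. At a C1q sum of at least 16, H2-Eb1 did (0.053). Retnla had 14219.5 and 10534 CPM in Lyve1-positive cells and 20287 and 10556 CPM in Lyve1-negative cells and did not pass the test, at -0.29 on the log2 scale, but without the 25 cells it was called in the other direction, at 0.43 (adjusted p = 0.033).

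**Figure D5:**
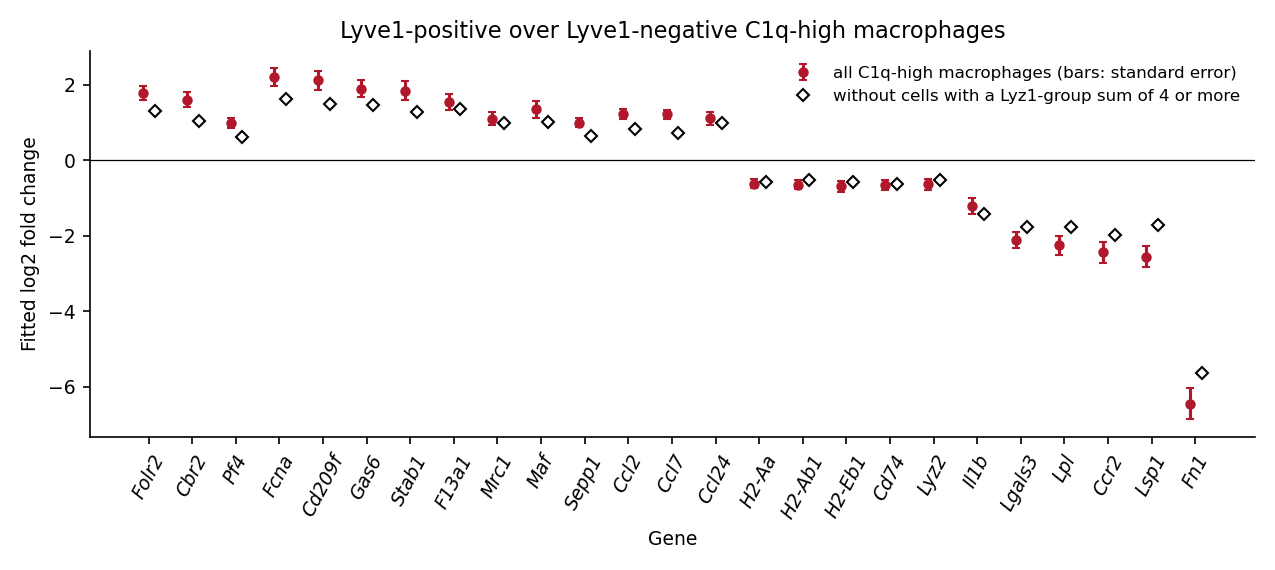
Fitted log2 fold change (y axis), Lyve1-positive over Lyve1-negative C1q-high macrophages, of named genes (x axis). Filled circles use all 253 cells, and open diamonds leave out the cells with a Lyz1-group sum of 4 or more. Bars are approximate standard errors from the F statistic, which can be too small for genes with few UMIs. Fcna, Folr2 and Gas6 lie above 0 and Fn1, Ccr2 and Lgals3 below it in both versions.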

How the data were processed

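Whole mesentery of 2 wild-type mice was profiled by single-cell RNA sequencing. The authors deposited a matrix of UMI counts by gene and barcode, as whole numbers that were not normalized. The submitters' processing notes name Cell Ranger and mm10. Neither its version nor the threshold behind the deposited barcodes is stated in these sources. The matrix held 27998 genes and 3204 barcodes. The suffix of each barcode, 1 or 2, was read as the number of the mouse, and the opposite reading would swap the names of the libraries and nothing else. The libraries held 1517 and 1687 barcodes with 5137671 and 5563521 UMIs, and the filters on genes (200 or more) and mitochondrial share (10% or less) removed 33 and 28.

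Members, lists and tests were chosen with earlier results of these data known. Counts were summed per library and population and tested by quasi-likelihood in edgeR 4.0.16 under R 4.3.3, after TMM scaling and filterByExpr. Library was a block because each mouse gave both populations; the library differences of the 2 populations correlated across genes at r = 0.14, 0.13 and 0.074 in the comparisons with Lyz1-group cells, with all other barcodes and by Lyve1. P-values were adjusted by the Benjamini-Hochberg method over all genes tested and called under 0.05. The 12 genes of the rules, and Lyve1 where it split the cells, were fitted and stand in the counts over all genes but are only described. Of 416 list genes, 4 did not match 1 row of the matrix.

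Genes named are, per comparison, the 10 largest called log2 fold changes in each direction (5 for the Lyve1 split) at an average log2 CPM of at least 6 with the same direction in both libraries. Added to these are Pf4, Folr2 and Cbr2, and of each list the 6 members highest in CPM and called members beyond 1.5 on the log2 scale. A group at 0 was set at 3 UMIs over both libraries for an "at least" fold. Shares have exact Clopper-Pearson 95% intervals. Thinning drew 2000 UMIs per cell. Scrublet in scanpy 1.11.5 called 39 and 4 doublets, 0 of them C1q-high macrophages, and none were removed in the results given. Positions of genes come from GENCODE M21 (GRCm38, the same assembly as mm10), and upstream sequences from RefSeq on GRCm38.p6. Alternatives used DESeq2 1.42.0 and the settings given at the end. Simulated data had 200 changed genes and a dispersion set to 0.1, which was not estimated from these data. In them, 4-fold changes were recovered in 50.0% of cases among 3475 genes for the comparison with Lyz1-group cells, 28.1% among 10854 for that with all other barcodes and 53.2% among 2405 for the Lyve1 split, and 2-fold changes in 5.26%, 0% and 4.08%. Of the calls, 7.14%, 3.57% and 1.82% were of unchanged genes.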

Additional observations from a re-analysis of the deposited data

How the results depend on the processing

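Against Lyz1-group cells, 627 genes were higher and 526 lower; DESeq2's Wald test called 168 and 94, and a Lyz1-group sum of at least 8 left 335 lower. Against all other barcodes, 1500 were higher and 2260 lower, and DESeq2's Wald test called 731 and 715; without the filter on low counts the median over all genes moved to -0.92, with 1306 higher and 2188 lower. In the Lyve1 split, 90 were higher and 81 lower. DESeq2's Wald test called 30 and 19 there, a C1q sum of at least 4 gave 161 and 171, a sum of at least 16 gave 21 and 17, and leaving out the cells with both sums, added after seeing the data, gave 41 and 36. Thinning gave 21 and 15, with 1212 genes tested, and DESeq2 size factors in edgeR called 139 lower. The share of 8.07% became 8.76% at a C1q sum of at least 4, 6.74% at 16 and 6.56% with barcodes held to 500 or more genes and a mitochondrial share of 5% or less, and ranged from 7.78 to 8.36% with a library left out. The causes of these moves were not tested.

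Without the library pairing (no replicate block), 503 genes were higher and 361 lower against Lyz1-group cells, 1376 and 2060 against all other barcodes, and 64 and 49 in the Lyve1 split. Leaving out a library leaves no residual degrees of freedom, so fold changes alone were compared. Some genes named above changed sign in a tested alternative, all of them uncalled in the values reported. Against Lyz1-group cells, Tyrobp, at 0.00025, was at -0.0048 without the replicate block, -0.0047 at a C1q sum of at least 16, -0.040 without the cells with both sums and -0.12 with the same limits on both populations, and ranged from -0.11 to 0.12 with a library left out. Retnla, at 0.092, was at -0.074 with a Lyz1-group sum of at least 8, -0.15 without the cells with both sums and -0.065 with the same limits, and H2-Ab1, at 0.083, was at -0.0027 without the cells with both sums. In the Lyve1 split, Retnla, at -0.29, was at 0.43 and called without the cells with both sums. The settings on cells with both sums and on the same limits, and leaving barcodes with a C1q sum of 8 or more out of the other barcodes, were added after seeing the data. With a library left out, the fold changes of Tyrobp, H2-Ab1 and Retnla against Lyz1-group cells and Gas6 against all other barcodes also changed sign, all uncalled. With 2 mice, differences near 2-fold were rarely recovered on simulated data at a dispersion set to 0.1. That dispersion was not estimated from these data, so the rates need not hold for them.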

Other observations

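Gene groups not described above were also measured against Lyz1-group cells. Of 12 purine and lipid mediator genes tested, of 20 listed, 6 rose and 1 fell, at a median log2 fold change of 1.74. Ltc4s, which makes the leukotriene LTC4, had 484 and 314 CPM in C1q-high macrophages, against 21.4 and 4.51 CPM in Lyz1-group cells (4.96 ± 0.33), and the nucleotide receptor gene P2ry6 had 309 and 250.4 CPM in C1q-high macrophages, against 8.58 and 0 CPM in Lyz1-group cells. Of 10 pattern recognition genes tested, of 21 listed, 6 rose and 2 fell, at a median of 0.65. Tlr2, a receptor for bacterial lipoprotein, had 429 and 474 CPM in C1q-high macrophages, against 154 and 139.8 CPM in Lyz1-group cells (1.68 ± 0.19), whereas Pycard, the inflammasome adaptor ASC, had 109.9 and 72.4 CPM in C1q-high macrophages, against 360.3 and 230.0 CPM in Lyz1-group cells (-1.61 ± 0.22). Of 6 interferon-inducible genes tested, of 20 listed, 5 rose and 0 fell, at a median of 1.56. Ly6e had 413 and 612 CPM in C1q-high macrophages, against 34.3 and 108 CPM in Lyz1-group cells (2.94 ± 0.24), and Isg15 was at 89.0 and 87.5 CPM in C1q-high macrophages and 60.0 and 63.1 CPM in Lyz1-group cells without passing the test. Of 16 cell cycle genes listed, Pcna, Stmn1 and Hmgb2 had counts enough to be tested by edgeR, and none was called in the values reported. Pcna, a DNA replication clamp, was called higher in 3 alternatives: a C1q sum of at least 4 (log2 fold change 0.93, adjusted p = 0.049), barcodes held to 500 or more genes and a mitochondrial share of 5% or less (1.40, 0.0056) and without the C1q-high macrophages whose Lyz1-group sum reached 4 (0.90, 0.042).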
